A study of Mus musculus with 2 samples.

Results

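Adipocyte and lipid droplet genes were followed in cultured mouse chondrocytes: 10 genes chosen by name (Adipoq, Cfd, Lpl, Cd36, Fabp4, Plin1, Plin2, Plin4, Cidec and Pnpla2), matched by symbol in a table of 13138 genes. All 10 were in the table, and all 10 passed the minimum level set for comparison, a mean of 50 normalized counts, as did 12809 genes in total. The data are RNA sequencing of 2 libraries of primary chondrocytes grown as micromass cultures, dense drops of cells that lay down cartilage-like matrix. One culture carries the labels hdac3-knockout and Cre-recombinase adenovirus, a virus that delivers an enzyme which cuts out DNA between loxP sites. The other is labelled wild-type and received a GFP control adenovirus, which delivers green fluorescent protein. Both are labelled C57Bl/6 and chondrocytes. The labels give no age, no sex and no driver of a floxed allele, nor do they state the number of animals behind each culture. Each group holds 1 library, so nothing could be tested and p-values are not given, and effects of the Cre protein, of GFP and of the labelled genotype cannot be told apart. Hdac3 itself, a histone deacetylase of nuclear receptor corepressor complexes, stood at 10.68 in the Cre-labelled library and 10.69 in the GFP-labelled library (log2 normalized counts), so its total did not bear out the knockout label. A total over the whole gene need not show the loss of some exons, and the 2 libraries are named here by label only.

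Adipocytes store triglyceride in a large lipid droplet, whose surface is coated by perilipins and by CIDE proteins that fuse droplets, and release fatty acids from it through adipose triglyceride lipase. Fatty acids reach the cell from lipoproteins split by lipoprotein lipase, pass the membrane with the help of CD36 and are carried in the cytoplasm by fatty acid binding proteins. The nuclear receptor PPAR-gamma and C/EBP factors drive most of these genes in fat, and Hdac3, with its corepressors, is known to hold back PPAR-gamma targets. Several of the genes are not peculiar to fat: macrophages also use Fabp4, Cd36, Lpl and Plin2, and capillary endothelium uses Fabp4 and Cd36.

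The members were present at clear levels in both libraries and differed by less than 1.5-fold between them. With only 10 members, this is near the share over all genes and does not show that they were steadier than other genes. No member differed by 1.5-fold (0.58 on the log2 scale) in either direction, where 3.2% of all genes compared did, and none by 2-fold, where 0.804% did (0.734% higher and 0.0703% lower). Of the 10, 4 were higher in the Cre-labelled library and 6 were lower, where 49.9% of all genes were higher. Their differences, Cre minus GFP, ran from -0.34 for Cidec to 0.24 for Fabp4, with a median of -0.09, beside a median of -0.00041 over all genes. The middle 90% of all genes lay between -0.30 and 0.37, and only Cidec among the members lay outside that range. The lower and upper quartiles of all genes were -0.087 and 0.091, and only Plin1 and Plin2 among the members lay between them. In bulk RNA, fewer cells of a type and less RNA per cell cannot be told apart.

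**Figure D1:**
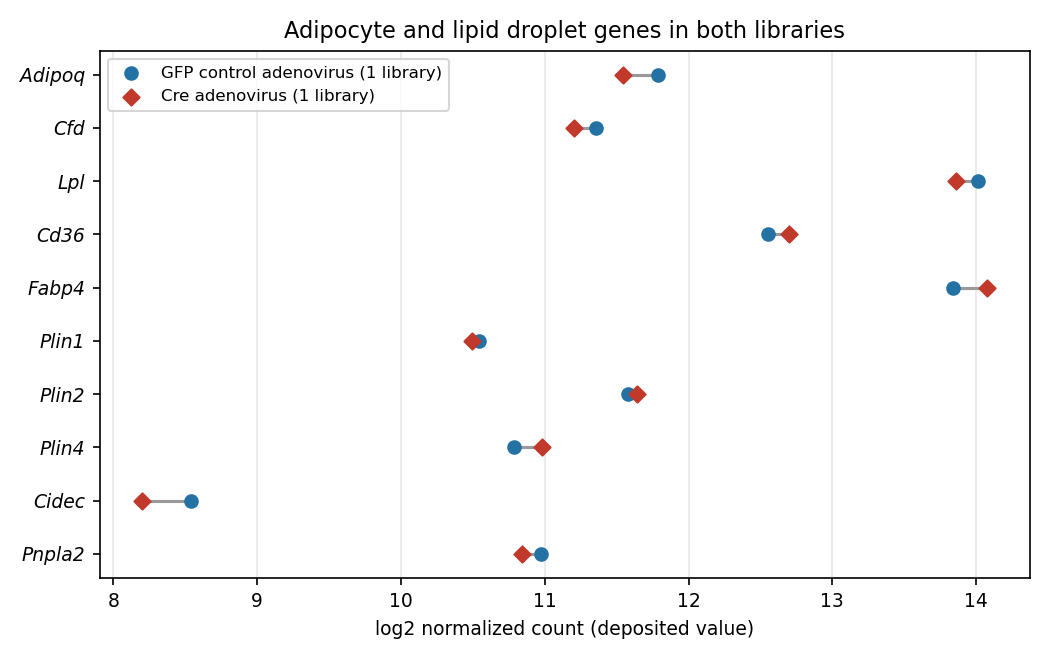
Deposited log2 normalized counts (horizontal axis) of the 10 genes in the Cre-labelled library (red diamonds) and the GFP-labelled library (blue circles), 1 library each, joined by a grey line. The widest gap is that of Cidec, 8.20 against 8.54, and the narrowest that of Plin1, 10.49 against 10.54.

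Short stretches of promoter are shown for 4 members, picked with their signs known. Adipoq and Plin1, used mainly by adipocytes, lay below 0, and Plin2 and Cd36, which other cells use too, lay above 0. Plin1 (-0.05) and Plin2 (0.06) were nearly level, and Lpl, which macrophages use too, lay below 0 (-0.15). No link of direction with cell use or with motifs is read from these 4. RefSeq promoter entries on GRCm38.p6 were found for 8 of the 10 members (Fabp4 and Lpl had none), and the 250 bases upstream of the start site are printed 5′ to 3′ on the gene's strand, with motif matches on either strand in capitals. The motifs searched were the nuclear receptor half-site AGGTCA, its direct repeat AGGTCANAGGTCA, known as a site of PPAR with its partner RXR, the C/EBP-type site TTGCNNAA, the promoter box CCAAT, the TATA-like box TATAAA, the hypoxia-response core ACGTG and the E-box CACGTG, which contains that core.
Adipoq (chr16:23146286-23146535, plus strand): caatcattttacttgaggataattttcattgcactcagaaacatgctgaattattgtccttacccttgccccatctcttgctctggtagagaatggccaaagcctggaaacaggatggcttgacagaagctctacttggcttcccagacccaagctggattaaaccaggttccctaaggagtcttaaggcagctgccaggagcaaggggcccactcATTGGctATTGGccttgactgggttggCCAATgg
Plin1 (chr7:79732777-79733026, minus strand): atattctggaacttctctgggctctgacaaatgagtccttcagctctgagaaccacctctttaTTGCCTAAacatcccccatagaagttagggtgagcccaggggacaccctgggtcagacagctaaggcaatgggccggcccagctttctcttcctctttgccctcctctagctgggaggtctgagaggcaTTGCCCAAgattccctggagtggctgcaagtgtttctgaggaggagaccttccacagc
Plin2 (chr4:86670060-86670309, minus strand): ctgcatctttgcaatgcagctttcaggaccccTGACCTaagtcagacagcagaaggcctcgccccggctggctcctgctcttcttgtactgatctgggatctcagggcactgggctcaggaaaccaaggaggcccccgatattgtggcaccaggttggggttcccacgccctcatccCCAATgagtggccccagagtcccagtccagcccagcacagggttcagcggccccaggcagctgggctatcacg
Cd36 (chr5:17835897-17836146, minus strand): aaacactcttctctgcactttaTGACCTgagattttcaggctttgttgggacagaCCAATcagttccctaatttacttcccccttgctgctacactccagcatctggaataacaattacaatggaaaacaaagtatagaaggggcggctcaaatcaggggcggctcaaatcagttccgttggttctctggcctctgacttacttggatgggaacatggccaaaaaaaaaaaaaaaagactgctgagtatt
In Adipoq the capitals are 3 CCAAT matches, 1 forward and 2 reverse, within 34 bases of the start. In Plin1 they are 2 C/EBP-type matches, TTGCCTAA and TTGCCCAA. Plin2 and Cd36 each hold 1 reverse half-site (TGACCT), starting 218 and 228 bases upstream, and 1 CCAAT. The Cd36 window lies inside the annotated span of the gene (17781690 to 17888801), and the Plin1 window runs into the span of its gene, which ends at 79732903. Each therefore precedes an internal start site, and the sequence before the outermost start was not searched for Cd36 and only in part for Plin1. Over 32851 promoter windows of the same length, 14.0% held the half-site, 9.56% the C/EBP-type motif and 33.8% CCAAT, so such matches are common, and they describe letters, not binding. The direct repeat was found in none of the 8 members' windows and in 0.0335% of all windows. Of the members whose promoters are not printed, Plin4 had 1 reverse CCAAT and the downstream of 2 Cidec entries 1 C/EBP-type match, while Pnpla2 and Cfd had no match to these motifs.

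Among the secreted products, the adipocyte hormone and the adipocyte protease were both slightly lower in the Cre-labelled library. Adipoq, which encodes adiponectin, an insulin-sensitizing hormone made by fat cells (GRCm38, chromosome 16, 23146536 to 23158028, plus strand, protein-coding), had a log2 normalized count of 11.55 in the Cre-labelled library and 11.79 in the GFP-labelled library. The difference of -0.24, 1.18-fold, was reached or passed in size by 16.1% of all genes compared. Cfd, which encodes adipsin (complement factor D), a serine protease of the alternative complement pathway that fat cells secrete (chromosome 10, 79890853 to 79892655, plus strand), had 11.20 against 11.36, a difference of -0.15. Lpl, the lipase anchored to capillary walls that splits triglyceride in lipoproteins (chromosome 8, 68880491 to 68907448, plus strand), had 13.86 against 14.01. Its difference of -0.15 equals that of Cfd to 2 decimals, and both lay near percentile 14 of all differences (13.4 for Cfd and 14.0 for Lpl).

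The uptake receptor and the carrier lay on the other side. Cd36, the scavenger receptor and fatty acid translocase (chromosome 5, 17781690 to 17888801, minus strand), had a log2 normalized count of 12.70 in the Cre-labelled library and 12.55 in the GFP-labelled library, a difference of 0.15. Fabp4, the adipocyte and macrophage fatty acid binding protein (chromosome 3, 10204088 to 10208576, minus strand), had 14.08 against 13.84. Its difference of 0.24 was the highest of the members and mirrored that of Adipoq in size. Within a library, Adipoq minus Fabp4 was -2.53 log2 units in the Cre-labelled library and -2.05 in the GFP-labelled library, a shift of 1.39-fold between them. These are distances between genes of unequal length, and only the shift, from which length drops out, is read here.

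Perilipins, the coat proteins of the droplet, lay on both sides of 0, with Plin1 and Plin2 nearly level. Plin1, the adipocyte perilipin that gates lipolysis (chromosome 7, 79720218 to 79732903, minus strand), was the member closest to level, at 10.49 in the Cre-labelled library and 10.54 in the GFP-labelled library, a difference of -0.05. Plin2, the widely expressed perilipin that marks droplets in most cell types (chromosome 4, 86648386 to 86670060, minus strand), had 11.64 against 11.58, a difference of 0.06. For these genes, 71.0% and 61.8% of all genes differed by at least as much. Plin4, a perilipin of small nascent droplets (chromosome 17, 56100591 to 56109803, minus strand), had 10.98 against 10.78, a difference of 0.20. Its exons share 17 bases with Hdgfl2 on the opposite strand, 0.294% of their merged length, and no other member overlapped another annotated gene.

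The droplet-fusing protein and the lipase were both lower in the Cre-labelled library. Cidec, the CIDE protein that lets adipocyte droplets merge and grow (chromosome 6, 113424634 to 113435760, minus strand), had 8.20 in the Cre-labelled library and 8.54 in the GFP-labelled library. This was the largest difference among the members, -0.34 or 1.26-fold, at percentile 3.91 of all differences, and 9.47% of all genes lay as far from 0. Cidec was also the least abundant member, and if the deposited values are shrunken logs, as their heading hints, its difference would be the most understated. Pnpla2, which encodes adipose triglyceride lipase, the enzyme of the first step of triglyceride breakdown (chromosome 7, 141455198 to 141460743, plus strand), had 10.84 against 10.98, a difference of -0.13.

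**Figure D2:**
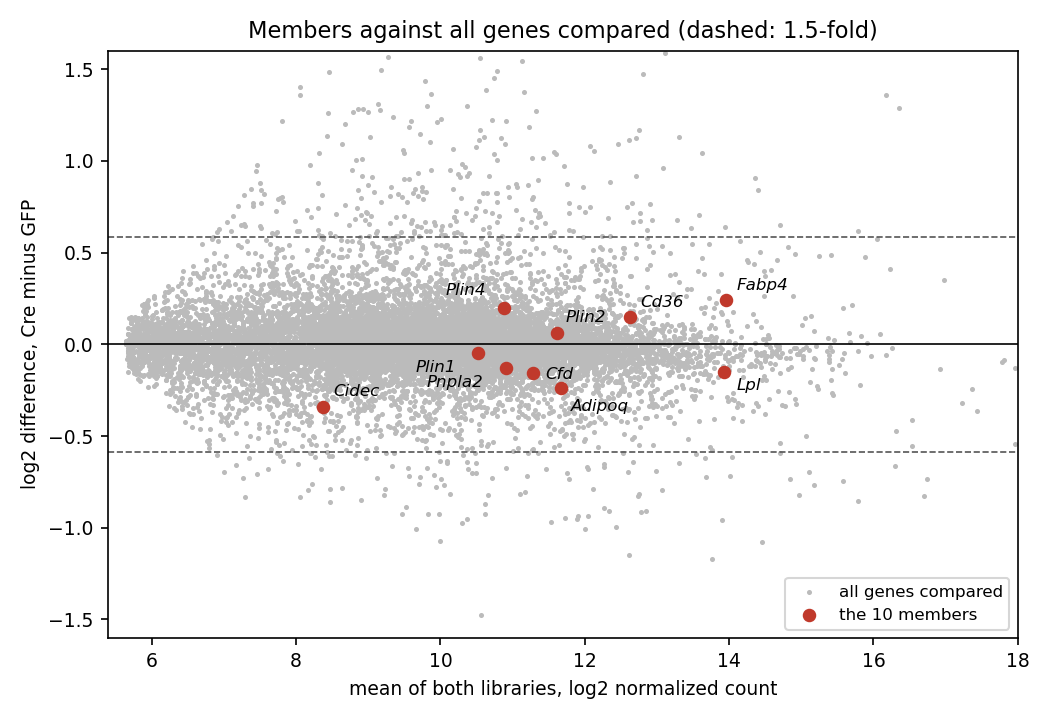
Log2 difference, Cre minus GFP (vertical axis), against the mean log2 normalized count of both libraries (horizontal axis), for the genes compared (grey) and the 10 members (red), with dashed lines at 1.5-fold. All members lie inside the dashed lines, and 32 genes fall outside the axes.

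Levels were compared between genes per kb of the longest principal protein-coding transcript in GENCODE. The order from highest to lowest was the same in both libraries: Fabp4, Lpl, Cfd, Adipoq, Cd36, Plin2, Pnpla2, Plin1, Plin4 and Cidec. Fabp4 had 19316 normalized counts per kb in the Cre-labelled library and 16355 in the GFP-labelled library, at percentile 99.3 of the genes with a length. It stood 5.34-fold and 4.08-fold above Lpl, the next member, which had 3615 and 4009 per kb. Cfd had 2556 and 2846 per kb, and Adipoq 2316 and 2736. These neighbours were only 1.10-fold and 1.04-fold apart, and with 1 library a group no spread shows whether they differ. Cd36 had 1957 and 1766 per kb, and Plin2 1695 and 1622.

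The lower end of the order holds the lipase and the remaining droplet coat genes. Pnpla2 had 1022 normalized counts per kb in the Cre-labelled library and 1119 in the GFP-labelled library, Plin1 512 and 529, and Plin4 352 and 306. Cidec, at the foot, had 171 and 216, at percentile 37.0 of all genes per kb. For scale, Col2a1, the main collagen of cartilage, had 200702 and 261763 per kb. With the merged length of all annotated exons in place of the transcript, an alternative added after the data were seen, Fabp4 stayed first and Cidec last, while Lpl moved from second to the fifth place. By merged length, Fabp4 had 3548 per kb at the mean of both libraries, and the next member, Cfd, had 2697. By transcript length Fabp4 had 17774, so the size of its lead depends on the length used. Together the members made up 0.126% of all summed linear values in the Cre-labelled library and 0.123% in the GFP-labelled library.

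Genes listed here as defining adipocytes were measured in both libraries. Whether the cultures held adipocytes was not tested. Of 10 such genes, 8 were measured: Adipoq, Plin1, Cidec, Pparg, Cebpa, Lipe, Retn and Slc2a4. The other two, Lep and Pck1, had no row in the table used and were not analysed here. All 8 were lower in the Cre-labelled library, with differences from -0.45 to -0.05, a median of -0.17 and none at 1.5-fold, beside 50.1% of all genes that were lower. Of these, 3 are members, and the other 5 had a median of -0.12. The list was chosen with earlier results of these data known, and its common direction depends on that choice. Among the 10 members, 4 were higher and 6 lower, with Fabp4 at 0.24 and Plin4 at 0.20. The list of other adipose genes had 8 higher and 8 lower. The summed linear level of the 8 was 9196 in the Cre-labelled library and 10250 in the GFP-labelled library, a log2 ratio of -0.16. Slc2a4, the insulin-responsive glucose transporter, differed most, with 7.38 against 7.83.

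Markers of macrophages, which use some of the members, were on the opposite side of 0 by their median. Of 16 macrophage markers, all measured, 11 were higher in the Cre-labelled library, 5 of them by 1.5-fold or more (2.25% of all genes) and 2 by 2-fold or more (0.734% of all genes). Their median difference was 0.26, and their summed linear level was 56552 in the Cre-labelled library against 37650 in the GFP-labelled library. Lyz2 was by far the largest term of both sums, with 14.82 against 13.98. Emr1, the F4/80 surface antigen, had 12.62 against 11.54, and Cd14, a monocyte co-receptor for lipopolysaccharide, had 11.27 against 10.23. The rise was not uniform, and 5 markers were lower, picked out here once their values were known. The mannose receptor gene Mrc1 lay at -0.73, C1qc at -0.34, C1qa at -0.16, C1qb at -0.13 and Cd68 at -0.05. Fabp4, Cd36 and Plin2, which macrophages express, were on the higher side, and Lpl, which they also express, on the lower. The part of macrophage RNA in these differences was not tested.

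Endothelial markers were scarce. Of 10, 7 passed the minimum, Emcn and Flt1 were below it and Tek had no row in the table used. The 7 had a median difference of 0.05, a range from -0.13 to 0.23 and a summed linear level of 2182 in the Cre-labelled library against 2016 in the GFP-labelled library. That median is the value of Tie1 and Esam, which had identical levels, 5.83 against 5.78. Both lie just above the minimum, 5.64 in log2, so the median says little. Fibroblast and perichondrial markers (9 of 9 measured) had a median of -0.0027, with sums of 531664 and 515625. Skeletal muscle markers (6 of 9) had a median of 0.23, with sums of 2813 and 2099, and osteoblast markers (8 of 8) a median of -0.17. Osteoblast sums were 241834 and 182395. Their largest terms were Col1a1 (16.86 in the Cre-labelled library against 16.99), which is also in the fibroblast list, and Spp1 (16.85 against 15.50). All 8 chondrocyte markers were lower in the Cre-labelled library, beside 50.1% of all genes. Of these, 3 (Matn3, Acan and Hapln1) were lower by 1.5-fold or more, beside 0.952% of all genes. Their median of -0.48 was the lowest of the marker lists. Their sums, 1489740 and 2013630, were still the largest of the marker lists in both libraries. The part of these cell types in the members' differences was not tested.

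**Figure D3:**
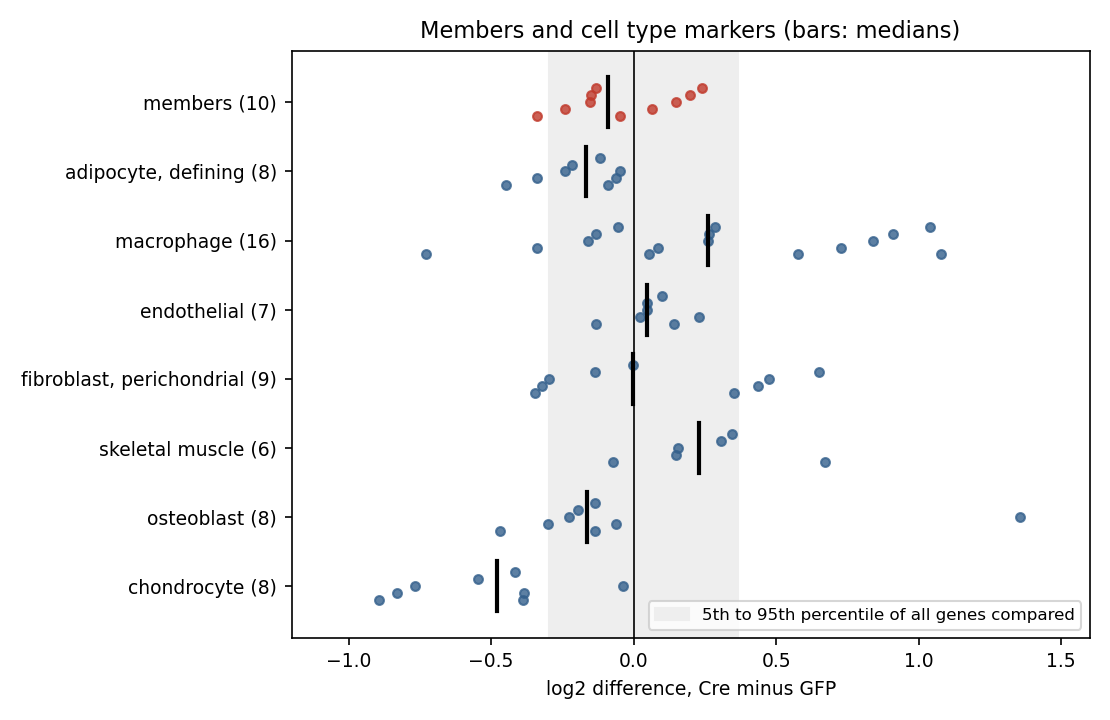
Log2 difference, Cre minus GFP (horizontal axis), of the members (red) and of marker genes of 7 cell types (blue, 1 point per gene, measured genes in parentheses), with medians as black bars and the 5th to 95th percentile of all genes in grey. The adipocyte bar lies at -0.17, the macrophage bar at 0.26 and the chondrocyte bar at -0.48.

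Upstream of the members, most regulators of fat formation were slightly lower in the Cre-labelled library, and a few were higher by more. Of 20 adipogenic regulators, 19 were measured, and 3 were higher and 16 lower, beside 49.9% and 50.1% of all genes. Their median difference was -0.12, while their mean was -0.0054. Pparg, the nuclear receptor that commands the adipocyte program, had 9.60 in the Cre-labelled library against 9.69 in the GFP-labelled library, and Cebpa, its partner in mature fat cells, had 10.92 against 11.03. Only Cebpd (11.46 against 10.01) and Cebpb (11.13 against 10.21), early factors of adipogenesis that are also induced in inflammation, reached 1.5-fold in this list, and both were higher, where 2.25% of all genes were. The other higher gene, Nr1h3, a lipid-sensing nuclear receptor gene picked out once its value was known, differed by 0.21. Dlk1, the preadipocyte factor that holds back fat formation, differed by -0.53, and Srebf1, which drives fatty acid synthesis genes, by -0.34.

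Other droplet and lipolysis genes lay on both sides of 0. Of 21 listed, 18 were measured, 6 were higher and 12 lower, and the median was -0.05. None reached 1.5-fold in either direction, which is near the 3.2% of all genes that did. Plin5, the perilipin of oxidative tissues whose gene is next to Plin4, is 1 of those listed but had no row in the table used and was not analysed here. Plin3 differed by 0.03, the hormone-sensitive lipase gene Lipe by -0.06 and the monoglyceride lipase gene Mgll by -0.01. Abhd5, which activates adipose triglyceride lipase, differed by 0.14. Its inhibitors lay on opposite sides: G0s2 had 11.30 in the Cre-labelled library against 11.86 in the GFP-labelled library, a difference of -0.56, and Hilpda, which is also induced by hypoxia, had 9.54 against 8.96, a difference of 0.58. Both are larger than any difference among the members. The caveolar genes Cav1 and Ptrf differed by -0.35 and -0.26.

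Fatty acid uptake and activation was the lipid list with the highest median, 0.21 over 17 of 19 listed genes, with 13 higher and 4 lower in the Cre-labelled library, beside 49.9% of all genes that were higher. At 1.5-fold, 2 were higher, beside 2.25% of all genes. Angptl4, a secreted inhibitor of lipoprotein lipase and a target of PPARs and of hypoxia, led it with 11.32 against 9.93, a 2.62-fold difference, while Lpl, which encodes the enzyme it inhibits, differed by -0.15. Msr1, the macrophage scavenger receptor, which is in the macrophage list too, differed by 0.73, the acyl-CoA synthetase gene Acsl4 by 0.49, the lipoprotein receptor gene Lrp1 by 0.41 and Fabp5, the carrier related to Fabp4, by 0.41. Gpihbp1, which holds lipoprotein lipase on the capillary wall, is listed too but had no row in the table used and was not analysed here.

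Triglyceride synthesis and fatty acid oxidation genes, each taken as a whole list, showed no common direction. Triglyceride synthesis genes (18 of 20 measured) had 10 higher and 8 lower members and a median of 0.01. Gpd1, which makes the glycerol backbone, had 11.06 in the Cre-labelled library against 11.65 in the GFP-labelled library and was the only one at 1.5-fold, on the side where 0.952% of all genes were called. The fatty acid synthase gene Fasn differed by -0.32, the glycerol kinase gene Gyk by 0.37, and the last enzymes of triglyceride assembly, Dgat2 and Dgat1, by 0.33 and 0.18. Other fatty acid synthesis genes of this list were picked out once their values were known. Elovl6 (-0.21), Acaca (-0.15) and Scd2 (-0.12) lay on the side of Fasn, and Scd1 was nearly level (0.01). Fatty acid oxidation genes (20 of 21 measured) had 9 higher and 11 lower members and a median of -0.01, with 0 at 1.5-fold in either direction, near the share of 3.2% over all genes. Hadh, which encodes a mitochondrial dehydrogenase of this pathway, differed by -0.19. The carnitine palmitoyltransferase gene Cpt1a differed by 0.05 and Pdk4, a PPAR target that spares glucose, by -0.05. Acads differed by 0.14 and Eci1 by -0.13.

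Other genes of fat tissue spread widely on both sides. Of 20 listed, 16 were measured, 8 higher and 8 lower, with a median of -0.04. At 1.5-fold, 2 were higher (2.25% of all genes) and 2 lower (0.952% of all genes). Lcn2, a lipocalin also made in inflammation, had 16.24 against 13.12, and Apln, which encodes the peptide apelin, 10.86 against 9.93. On the lower side, Car3, an abundant carbonic anhydrase of adipocytes and muscle, had 10.16 in the Cre-labelled library against 11.09 in the GFP-labelled library, and Thrsp, a lipogenic gene, 8.47 against 9.32. These differences of -0.93 and -0.85 exceed that of every member.

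PPAR target genes, of which 7 are members, showed no shared shift. Among 19 of 22 measured, 10 were higher and 9 lower in the Cre-labelled library, with a median of 0.04, and the 12 that are not members had a median of 0.01 with 6 on each side. Angptl4 was the only one at 1.5-fold or more on the higher side and Gpd1 the only one on the lower, beside 2.25% and 0.952% of all genes.

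**Figure D4:**
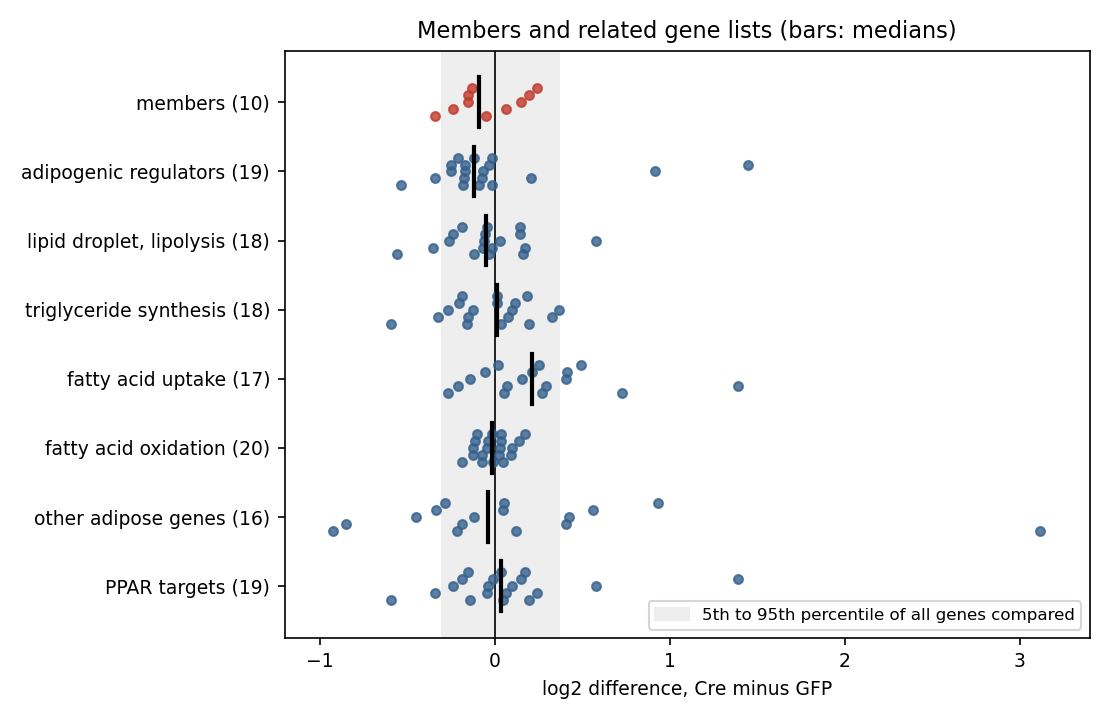
Log2 difference, Cre minus GFP (horizontal axis), of the members (red) and of 7 related gene lists (blue, 1 point per gene, measured genes in parentheses), with medians as black bars and the 5th to 95th percentile of all genes in grey. The medians run from -0.12 for adipogenic regulators to 0.21 for fatty acid uptake, and the point at 3.12 is Lcn2.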

How the data were processed

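Total RNA from each culture went into a TruSeq v2 mRNA library, per the labels' protocols. Tools named in the submitters' processing notes are TopHat2 2.0.6, bcl2fastq 1.8.4 and HTSeq, with build mm10; the annotation, strand setting and handling of multiple alignments were not given in the sources used here. The authors deposited log2 normalized counts, 1 column per library, with their mean and difference; the transform is not described, and a regularized log, which shrinks differences of scarce genes, is inferred from the heading. The deposited difference is GFP minus Cre; all differences here are Cre minus GFP. Depth is unknown, so no counting interval is given. The comparison took genes whose mean linear level reached 50. Without replicates, genes were counted by fold alone. Calculations used Python 3.11.15 and pandas 2.3.3 and were tested on simulated data. Coordinates and transcript lengths come from GENCODE M21 on GRCm38 (mm10); symbol plus chromosome gave a single gene model for 11585 of 12809 genes. Named were all members, Hdac3, up to 4 genes per list with the largest absolute difference, and genes fixed by name; 1 gene that the rule names is not reported here. Members and lists were chosen with earlier results of these data known. Alternatives were 3 scalings, 2 minimums, the mean for the median, and the length measure.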

Additional observations from a re-analysis of the deposited data

How the results depend on the processing

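Single members kept their sign and stayed within 0.1 on the log2 scale in all 49 alternative values (3 scalings, no minimum and a minimum 10 times higher, at which Cidec dropped out and 9 members were left). Scaling shifted every difference alike, by 0.00041 (median at 0) to 0.015 (equal totals without Rn45s and Lars2). A minimum leaves a member's difference unchanged, and these shifts are smaller than the smallest member difference, -0.05 for Plin1. No sign could therefore turn, and the agreement is no sign of robustness. The counts of members by direction and at 1.5-fold and 2-fold held too, for the same reason. Of 40 alternative values of list medians, 36 kept their sign. With the mean in place of the median, triglyceride synthesis turned to -0.032, other adipose genes to 0.14 and adipogenic regulators moved to -0.0054, since a few members lie far out. At the minimum 10 times higher, fatty acid oxidation turned to 0.0052 over 18 genes and other adipose genes to 0.23 over 8. No paired analysis was possible because there is only 1 library in either group.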

Other observations

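The nearest measured genes on either side of each member were read for their own differences, with gene positions matched by current symbol, so genes under an older symbol were passed over. Of 20 such neighbours, 15 had the sign of their member, where 49.9% of all genes were above 0 and 50.1% below, and 1 differed by 1.5-fold or more, where 3.2% of all genes did. These counts were not tested. How often adjacent genes share a sign over all genes was not computed, so nothing about the members is read from them. The gene at 1.5-fold was Lrg1, which encodes a secreted leucine-rich glycoprotein and is 9.88 kb from Plin4, at 9.28 in the Cre-labelled library against 8.43 in the GFP-labelled library. Its difference of 0.84 was larger than the 0.20 of Plin4. Cidec, the member farthest from 0, had neighbours that were close to level, with Rpusd3 at -0.05 and Jagn1 at -0.00076. Next to Pnpla2, Rplp2 differed by -0.09 and Cd151 by 0.18, on opposite sides of 0.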
